A study of Homo sapiens with 6 samples.

Results

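The cytosolic ribosomal protein genes encode the proteins of the ribosomes that translate nuclear messenger RNAs. They were chosen by symbol alone, as every gene of the deposited table named RPL or RPS with a number and an optional A, X or L, together with RPLP0, RPLP1, RPLP2 and RPSA. This gave 79 of the 17990 genes of the table. Of these, 77 averaged 20 or more counts across the libraries and are called measured, as were 11916 genes in all. RPL3L and RPL39L, with mean counts of 7.2 and 1.7, were not. Of the measured genes, 30 encode proteins of the small subunit and 47 proteins of the large subunit.

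The series asked which transcripts respond to androgen, and when, in LNCaP, a single human prostate cancer cell line that grows in response to androgen. All cells had been kept in medium with charcoal-treated, hormone-depleted serum. There were 6 RNA-seq libraries from total RNA, 1 per group: untreated cells at 0 h, and cells given 10 nM dihydrotestosterone (DHT, a potent natural androgen) for 3, 6, 12, 24 and 48 h. No untreated library of a later time was used here, so DHT and time in culture cannot be told apart. With 1 library per group there is no replicate check of any difference and no p-value. A change of at least 2-fold is a rule of size only, and the 95% intervals given cover counting error only.

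Totals over the listed transcripts ran from 13179917 to 20587956 counts, and levels are given in CPM (counts scaled to the same total in each library). Changes are log2 of (CPM + 1) over (CPM + 1) at 0 h, and every comparison shares the 0 h library. The 8 luminal prostate markers examined were all present, with KLK3 at 4565.5 to 11949.9 CPM, while the 3 basal markers summed to 0.332 to 0.895 CPM. The 5 leukocyte markers summed to 13.6 to 18.7 CPM, nearly all from CD68, with PTPRC at 0.0759 CPM at most. The 5 fibroblast markers summed to 32.1 to 70.0 CPM, most of it COL1A1, with COL1A2 at 0.0486 CPM at most. In the 12 h library, genes on chromosome 4 and on distal chromosome 15 stood far below the other libraries, so RPL34, RPL9, RPS3A and RPLP1, which lie there, were not used at that time and 73 measured members were.

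Each ribosome carries a single copy of nearly all of its proteins, and the stalk proteins are the main exception. The messenger RNAs of ribosomal proteins are abundant and stable, and most begin with a cytosine followed by a run of pyrimidines, the terminal oligopyrimidine (TOP) tract. Through that tract, growth signals that act by way of mTOR and the protein LARP1 control how fast these messages are translated. RNA-seq measures the amount of message and not its translation.

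The ribosomal protein genes took a smaller share of the counts at each time from 6 h on. The 79 genes held 7.75% of the counts at 0 h (exact binomial 95% interval 7.739 to 7.768%), 8.17% at 3 h, 6.66% at 6 h, 5.02% at 24 h and 3.94% at 48 h (3.932 to 3.952%). Over the 75 genes that could be used at 12 h, the share was 7.75% at 0 h, 6.16% at 12 h and 3.97% at 48 h. The 3 h library had the highest share and the 48 h library the lowest. Relative to 0 h the share was 1.05-fold at 3 h, 0.859-fold at 6 h, 0.794-fold at 12 h (75 genes), 0.648-fold at 24 h and 0.508-fold at 48 h. These are shares of a library: less of these messages per cell, more of other RNA, and a change in the cells present cannot be told apart in bulk samples.

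**Figure D1:**
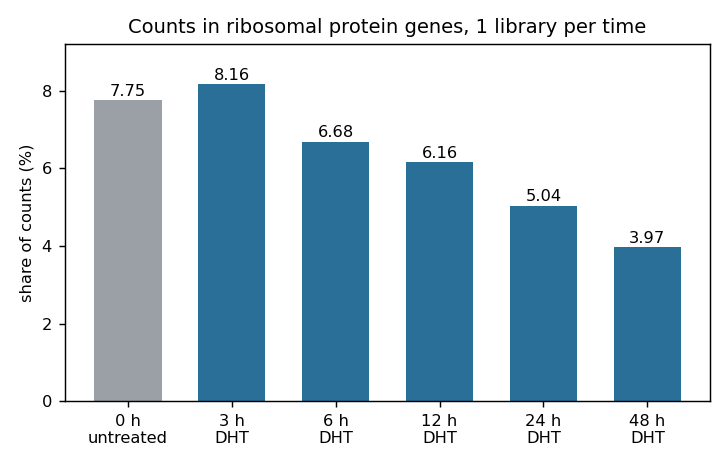
Share of the counts (%, vertical axis) held by the 75 ribosomal protein genes off chromosome 4 and distal chromosome 15, 1 bar per library, grey for untreated and blue for DHT. The bars go from 7.75% at 0 h through 8.16% at 3 h to 3.97% at 48 h.

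At 48 h, 35 of the 77 measured members were at least 2-fold lower than at 0 h and 0 were 2-fold higher, where 7.33% of all measured genes were lower and 15% higher by that rule. The median change of the members was -0.96, a ratio of 0.514, against -0.06 for all measured genes. Only RPS27L was above its 0 h level. Of the 77 ratios, 74 had a counting interval wholly below 1, 1 (RPS27L) had one above 1, and those of RPS26 and RPL10L held 1. Most members have many counts and so narrow intervals, and the share of all genes with such intervals is not given here. At 1.5-fold, 62 members were lower, against 22% of all genes. The 2-fold count was 22 with median-of-ratios scaling and 15 after the trend of change on transcript GC content was removed. The shares of all genes under these settings are not given here, and the 7.33% belongs to the CPM scale without correction. Some values lay near the limit: RPS21 lay just inside it at -1.002 and RPLP1 just outside at -0.991.

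The earlier times held few changes of that size. At 24 h, 3 members were at least 2-fold lower, among them RPS9 (-1.07) and RPL13A (-1.04), and 0 higher, against 10.8% of all genes lower and 10.5% higher, so the 24 h count of members was below the background share. With median-of-ratios scaling, which moves the median of all genes at 24 h by 0.15, 0 members were 2-fold lower. At 1.5-fold, 40 members were lower at 24 h, against 24.2% of all genes, and the median was -0.60. At 3, 6 and 12 h, 0 members were past 2-fold in either direction. Among all genes, 0.864% were lower and 0.747% higher at 3 h, 3.01% and 15.3% at 6 h, and 4.1% and 11.6% at 12 h. At 1.5-fold, 0 members were lower at 3 h, 2 at 6 h and 2 at 12 h, against 8.13%, 13.4% and 13.6% of all genes.

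The changes of the members spread less than those of all measured genes (plot of the change of each gene over time). The SD of the change over the members was 0.086 at 3 h, 0.28 at 6 h and 0.369 at 48 h, against 0.357, 0.757 and 0.906 over all measured genes. The median member had 824.9 CPM at 0 h, whereas all measured genes include genes with few counts, where counting error is larger. The change of all genes also varied with transcript GC content (r = -0.74 at 6 h). Whether the members spread less than other genes of like level and GC content was not tested. At 3 h the median was 0.07 and 11 of 77 lay below 0 by any amount, where 60.6% of all genes did. Below 0 lay 53 of 77 at 6 h, 55 of 73 at 12 h, 74 of 77 at 24 h and 76 of 77 at 48 h. The shares of all genes below 0 at those times were 45.6%, 46%, 54.3% and 53%. Above 0, the rule gives 39.4%, 54.4%, 54%, 45.7% and 47% of all genes in the order of time.

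On the CPM scale the change came in uneven steps, and their sizes depended on the scaling. With median-of-ratios scaling the median change against 0 h was -0.306 at 6 h, -0.323 at 12 h, -0.45 at 24 h and -0.885 at 48 h. By these medians more of the fall lay after 24 h than between 12 and 24 h, whereas those 2 CPM steps were alike. From 3 to 6 h 60 of 77 members went down (44.7% of all genes), with a median step of -0.28. From 6 to 12 h 51 of 73 did (52.8% of all genes), with a median step of only -0.05. From 12 to 24 h 72 of 73 went down, with a median step of -0.37, but so did 74% of all genes. Both steps use the 12 h total, where genes of chromosome 4 and distal chromosome 15 stood far below the other libraries. The CPM of other genes at 12 h is therefore slightly raised. With totals that leave out these regions, the median change against 0 h was -0.198 at 6 h, -0.32 at 12 h and -0.595 at 24 h. With the full total it was -0.276 at 12 h. From 24 to 48 h 74 of 77 went down, where 40.1% of all genes did, with a median step of -0.33. The 3 exceptions in that last step were RPL10L (0.14), RPL17 (0.22) and RPS27L (0.34), and RPL17 is named after its value was seen. With 12 h left aside, the 48 h library was the lowest of the other 5 libraries for 74 members, and the 3 h library was the highest for 58. The same shares of all genes are not given here, so these counts have no background beside them.

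**Figure D2:**
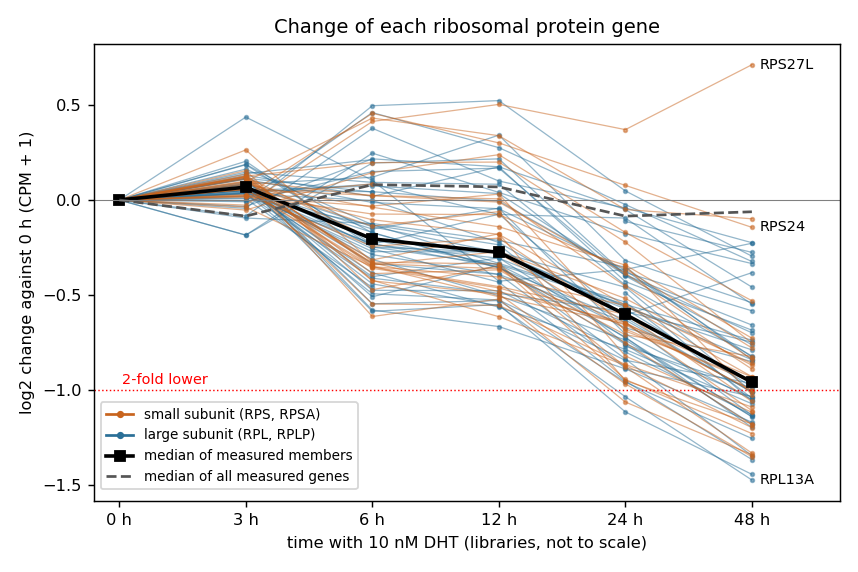
Log2 change against 0 h (vertical axis) of each measured ribosomal protein gene at each time with DHT (horizontal axis, not to scale), small subunit in orange and large subunit in blue, with the median of members in black and that of all genes dashed. The median of the members goes from 0.07 at 3 h to -0.96 at 48 h, and RPS27L alone ends above 0.

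Both subunits had like medians at every time. At 48 h the median was -0.95 over the 30 small-subunit genes, 14 of them at least 2-fold lower, and -0.97 over the 47 large-subunit genes, 21 of them lower. At 24 h the medians were -0.65 and -0.57, and at 6 h -0.28 and -0.17. At 48 h the changes ran from -1.35 to 0.71 within the small subunit and from -1.48 to -0.23 within the large one, far wider than the gap between the medians.

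The first bases of the transcripts are shown for the members at both ends of the 48 h order, to set the TOP tract beside the change. Each line gives 30 bases, 15 before the annotated start and 15 from it on, 5′ to 3′ on the gene's strand, from RefSeq on GRCh38.p14, and capitals mark the run that begins with C and goes on with at least 4 bases that are C or T, nearest the start. The first 6 lines are members among the 7 lowest at 48 h and the last 5 are the 5 highest.
RPL13A at chr19:49487593-49487622, plus strand: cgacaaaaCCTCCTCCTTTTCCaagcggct
RPL12 at chr9:127451392-127451421, minus strand: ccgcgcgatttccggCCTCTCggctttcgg
RPS3 at chr11:75399503-75399532, plus strand: gcccgcgagccaCTTCCTTTCCTTTCagcg
RPL37A at chr2:216498829-216498858, plus strand: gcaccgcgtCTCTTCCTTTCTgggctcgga
RPS9 at chr19:54200843-54200872, plus strand: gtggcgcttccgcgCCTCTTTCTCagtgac
RPSA at chr3:39406705-39406734, plus strand: tttcctgccgcctgtCTTTTCCgtgctacc
RPL10L at chr14:46651767-46651796, minus strand: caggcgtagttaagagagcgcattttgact
RPL36A at chrX:101390996-101391025, plus strand: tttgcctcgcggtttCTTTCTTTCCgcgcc
RPS24 at chr10:78033848-78033877, plus strand: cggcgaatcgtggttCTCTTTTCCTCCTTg
RPS26 at chr12:56041903-56041932, plus strand: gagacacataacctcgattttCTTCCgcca
RPS27L at chr15:63157463-63157492, minus strand: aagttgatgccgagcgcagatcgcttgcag

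The 6 lowest members shown carry the tract at the annotated start, and so do RPS24 and RPL36A among the highest. RPS27L and RPL10L have no such run within 10 bases before to 15 after the start, and in RPS26 a short one begins downstream of the annotated start. Of the 63 measured members with a promoter entry, 45 (71.4%) have the tract at the first base, against 5.14% of 27305 genes, and 57 (90.5%) have one beginning in the wider window, against 43.4%. Among these 63, the tract at the first base was present in 24 of the 31 members that were at least 2-fold lower at 48 h and in 21 of the other 32.

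Short motifs were also looked for over 300 bases, from 250 before the start to 50 after it, on both strands. CCGGAAG, the core bound by ETS factors, was in 22 (34.9%) of the members against 12.2% of genes. The E-box CACGTG was in 4 (6.35%) against 8.77%, AAGATGG, bound by YY1, in 8 (12.7%) against 7.11%, and TATAAA in 6 (9.52%) against 14%. The palindromic androgen response element, in its strict consensus form, was in 0 members and in 0.00366% of genes. A match describes letters in this window, not binding, and no match says only that these letters are not there.

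Large-subunit proteins led the lower end at 48 h. RPL13A, which besides its place in the ribosome takes part in translational silencing after interferon-gamma, had 3631.7 CPM at 0 h, 3810.4 at 3 h, 2673.6 at 6 h, 2468.2 at 12 h, 1769.0 at 24 h and 1304.9 at 48 h. It was lower in each library after 3 h than in the one before, and its 48 h ratio was 0.359 (0.353 to 0.365), the lowest of the members. RPL12, at the base of the stalk, had 1017.7, 1055.7, 851.4, 753.6, 525.0 and 393.8 CPM in the same order and a ratio of 0.387 (0.375 to 0.399). The counting interval of RPL13A lies below that of RPL12 before any GC correction. At 48 h RPL13A was at -1.131 and RPL12 at -1.078 after correction by transcript GC. By coding GC, chosen after seeing the data, RPL13A was at -1.106 and RPL12 at -1.221.

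RPL37A, a zinc-binding protein of the large subunit, had 1715.1, 1799.5, 1204.3, 1352.1, 958.9 and 673.2 CPM, with 12 h above 6 h. RPL18 had 1298.6, 1405.8, 888.5, 899.4, 667.2 and 543.0 CPM. Their 48 h changes were -1.35 and -1.26. RPL8, which lies close to the peptidyl transferase centre, was among the 3 lowest at 6 h (-0.58) and at 12 h (-0.67), and its levels were 3375.4, 3648.4, 2257.5, 2124.9, 1820.8 and 1498.0 CPM. RPL36 was also among the 3 lowest at 12 h, at -0.57. RPL8 stood at -1.17 at 48 h, whereas RPL12, with a smaller difference at 6 h (-0.26), stood lower at 48 h (-1.37). After the trend on transcript GC was removed, the 6 h order was reversed, with RPL8 at -0.084 and RPL12 at -0.172. With coding GC, chosen after seeing the data, they were at -0.182 and -0.326 at 6 h. At 12 h RPL8 was at -0.266 and RPL36 at -0.157 after the correction by transcript GC.

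Among small-subunit proteins, RPS3, which lines the entry of the messenger RNA channel, was lowest at 48 h. It had 1733.9, 1883.8, 1290.6, 1228.9, 885.5 and 678.4 CPM and a 48 h ratio of 0.391 (0.382 to 0.401). RPS9, which takes part in decoding accuracy, had 680.0, 740.7, 444.1, 473.2, 324.5 and 267.6 CPM. Before any GC correction it was the lowest member at 6 h (-0.61). RPSA, also known as the laminin receptor precursor, had 1018.4, 1222.9, 810.9, 806.2, 552.8 and 403.3 CPM. It was the second highest of the members at 3 h (0.26) and among the 7 lowest at 48 h (-1.33).

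RPS19, the gene most often mutated in Diamond-Blackfan anaemia, had 759.9, 845.9, 547.0, 596.7, 393.9 and 323.1 CPM. RPS2 had 1231.5, 1353.6, 918.3, 803.7, 672.3 and 535.4 CPM. Their 48 h changes were -1.23 and -1.20, and each was highest at 3 h and lowest at 48 h.

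The stalk recruits the elongation factors to the ribosome. Its RPLP0 had 1884.8, 2109.9, 1721.9, 1495.5, 1297.7 and 913.3 CPM, a 48 h change of -1.04. RPLP1 had 1314.7, 1320.8, 954.8, 769.7 and 660.9 CPM at 0, 3, 6, 24 and 48 h, a 48 h change of -0.99. RPLP2 had 1273.0, 1303.2, 956.3, 904.6, 846.1 and 756.8 CPM, a 48 h change of -0.75. RPLP1 and RPLP2 were at like levels at 0 h, and their 48 h ratios of 0.503 (0.49 to 0.515) and 0.595 (0.581 to 0.609) differed beyond counting error.

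RPL5 and RPL11 bind the smallest ribosomal RNA, and their free complex with it inhibits MDM2, the ligase that degrades p53. RPL5 had 618.7, 614.9, 686.7, 695.1, 468.7 and 364.2 CPM. RPL11 had 1073.0, 1188.4, 1144.5, 1136.5, 786.0 and 606.6 CPM. Before any GC correction, both were at or above their 0 h level at 6 and 12 h. They were then lower, at -0.76 and -0.82 at 48 h, so neither reached 2-fold. RPS27A, made as a fusion with ubiquitin, was likewise above 0 h at 6 and 12 h, with 130.7, 125.9, 144.4, 154.4, 115.9 and 90.1 CPM and -0.53 at 48 h. After the trend on transcript GC was removed, each was below 0 at 6 and 12 h. RPL5 was at -0.234 and -0.15, RPL11 at -0.058 and -0.039, and RPS27A at -0.284 and -0.116. With coding GC, chosen after seeing the data, RPL5 (-1.258) and RPS27A (-1.091) were past 2-fold at 48 h, and RPL11 was at -0.743.

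A smaller group was above its 0 h level at 6 h before any GC correction. RPL7 had 384.1, 372.4, 542.3, 552.7, 397.1 and 312.6 CPM, the highest change at 6 h (0.50) and at 12 h (0.52). RPL26, whose protein is also known to bind the p53 message, had 599.5, 597.8, 825.8, 726.2, 589.8 and 478.7 CPM. RPS24 had 996.1, 1010.6, 1368.0, 1227.4, 1050.9 and 901.3 CPM, and its 48 h ratio of 0.905 (0.883 to 0.927) was nearest to 1 among the members with over 1000 counts at 0 h. RPL21 was among the 3 highest at 12 h (0.34). These 4 genes were higher at 6 h than at 3 h and below 0 h at 48 h, and their coding sequences have 43.4% (RPL7), 45.1% (RPL26), 43.8% (RPS24) and 43.5% (RPL21) GC. After the trend of all genes on transcript GC was removed, the 6 h changes were -0.06 for RPL7, 0.07 for RPL26, 0.32 for RPS24 and -0.05 for RPL21. With coding GC, a setting chosen after seeing the data, all 4 were below 0, at -0.25, -0.13, -0.25 and -0.62. Of the 74 members with both GC values, 23 were above 0 at 6 h, 15 after the correction by transcript GC and 7 after that by coding GC.

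RPL36A, another member near the upper end, had 277.2, 261.5, 360.5, 297.2, 269.3 and 237.0 CPM and a 48 h ratio of 0.855 (0.816 to 0.895). At 3 h the changes were small throughout: RPL31 and RPL22 (both -0.19) and RPL23A (-0.10) were lowest, and RPL10L (0.44), RPSA (0.26) and RPL35 (0.20) highest. The RPL10L value rests on 149 counts at 0 h.

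Of the 4 copies whose symbols end in L, RPS27L and RPL10L could be followed, and neither had the 48 h ratio of its partner within counting error. RPS27L, whose transcription is known to be raised by p53, had 37.6, 36.9, 50.5, 53.8, 49.0 and 62.3 CPM and a 48 h ratio of 1.66 (1.48 to 1.85). Its 48 h change of 0.71 was 0.35 after correction by transcript GC and -0.07 by coding GC. In CPM it was highest at 48 h, where RPS27 was lowest, with 692.8, 756.2, 794.2, 795.7, 593.9 and 410.3 CPM and a ratio of 0.592 (0.573 to 0.612). RPL10L, the testis copy that stands in for X-linked RPL10 in male meiosis, had 11.3, 15.7, 12.2, 8.15, 8.55 and 9.5 CPM. RPL10 had 774.1, 808.7, 584.8, 626.4, 467.4 and 349.9 CPM, a 48 h ratio of 0.452 (0.437 to 0.467) beside 0.841 (0.664 to 1.06) for RPL10L.

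RPL3L, the copy of heart and skeletal muscle, had 5, 7, 4, 13, 5 and 9 counts, where RPL3, the member with most counts at 0 h, had 3686.0, 3791.4, 3017.8, 2809.0, 2358.9 and 1678.5 CPM. RPL39L had 1, 1, 1, 1, 5 and 1 counts, and RPL39 124.6, 136.5, 126.2, 140.8, 120.3 and 90.4 CPM. A count of 0 allows up to 3 counts (0.146 to 0.228 CPM). RPL39L was under that level except at 24 h, and RPL3L was above it with 13 counts at most, and no fold is given for either. RPS26, which has no such copy among the members, had 5.77, 6.24, 8.13, 7.56, 5.54 and 5.32 CPM.

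On chromosome 4, RPL34 had 263.7, 290.4, 305.8, 243.8 and 217.5 CPM at 0, 3, 6, 24 and 48 h. RPL9 had 692.0, 749.5, 712.3, 493.2 and 331.5 CPM, and RPS3A 503.3, 510.7, 533.8, 396.0 and 246.6 CPM. RPL9 and RPS3A were at -1.06 and -1.03 at 48 h and RPL34 at -0.28. After the trend on transcript GC was removed, RPL9 was at -1.529, RPS3A at -1.299 and RPL34 at -0.816 at 48 h. RPL4, on chromosome 15 before the part left out, had 2009.3, 2070.1, 1785.1, 1565.9, 1296.2 and 995.6 CPM, with a 12 h value between its neighbours in time.

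**Figure D3:**
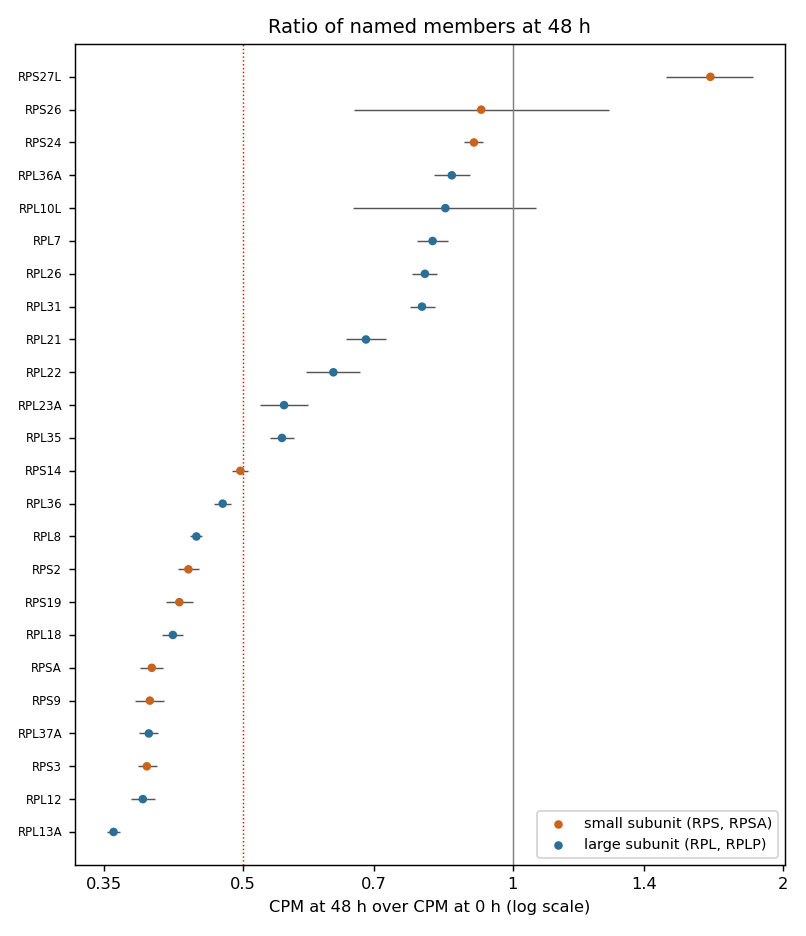
CPM at 48 h over CPM at 0 h (horizontal log axis) of measured members named for the lowest or highest changes at any time or the lowest or highest levels per transcript kilobase, sorted, with 95% counting intervals as bars, orange for the small and blue for the large subunit. Ratios run from 0.359 for RPL13A to 1.66 for RPS27L, and the dotted line marks 0.5.

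Although most of their proteins are present once per ribosome, the messages differed widely in level. Per kilobase of coding sequence at 0 h, on the CPM scale, the level ran from 16.7 for RPS26 to 7178.6 for RPL41, a gene for a very short peptide, with a median of 1901.0 over the 74 members with a coding length. Per kilobase of the annotated transcript, some of which are much longer than the coding part, RPL8 (3497.8), RPS14 (3213.2) and RPL13A (3075.1) were highest and RPS27L (5.85), RPS26 (9.26) and RPL10L (13.9) lowest. RPL41 is named after its value was seen. How reads that match several loci were counted is not given in the sources used here, and these genes have many processed copies: RPL23A has 91 named pseudogenes, RPSA 74, RPL21 66, RPL7 61 and RPL12 50. Across the 74 genes the number of pseudogenes and the log2 level per coding kilobase at 0 h had r = -0.28 (rho = -0.37). Low levels among the members are therefore uncertain.

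On the CPM scale, a share of the library, the median member had 824.9 CPM at 0 h, 845.9 at 3 h, 768.5 at 6 h, 538.9 at 24 h and 424.0 at 48 h. At least 1000 CPM was reached by 31 members at 0 h, 34 at 3 h, 13 at 24 h and only 6 at 48 h. RPL3 had the highest CPM in each library except 3 h, where RPL13A did, and RPS26 the lowest in every library.

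The change of the members varied with the GC content of their coding sequences and with their level at 0 h. Across members, the change and coding GC had r = -0.76 at 6 h (n = 74), -0.80 at 12 h (n = 70), -0.64 at 24 h and -0.54 at 48 h, and 0.32 at 3 h. With log2 CPM at 0 h the change had r = -0.53 at 6 h, -0.50 at 12 h, -0.50 at 24 h and -0.63 at 48 h, and -0.03 at 3 h, where the 0 h library enters both measures. At 48 h rho was weaker, at -0.44. With mean CPM over libraries other than 12 h in its place, r at 48 h was -0.57 and rho -0.36. The points share 1 pair of libraries at each time. Over all measured genes with a coding GC (n = 11138; 10606 at 12 h), r was -0.70, -0.58, -0.48 and -0.52 at 6, 12, 24 and 48 h and 0.21 at 3 h, so the trend was not limited to the members. Among the 25 members of lowest coding GC (42.1 to 47.9%), the median change was 0.04 at 6 h and -0.74 at 48 h, with 5 at least 2-fold lower at 48 h. Among the 24 of highest coding GC (54.3 to 63.0%) the medians were -0.41 and -1.07, and 15 were lower. At 6 h, 16 of the former and 0 of the latter were above 0. This grouping was chosen after the values were seen.

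With the trend of all genes on transcript GC removed, the median of the members was -0.20 at 6 h, -0.42 at 24 h and -0.74 at 48 h, and 70 of the 74 members with a GC value stayed below 0 at 48 h. The 15 members then at least 2-fold lower at 48 h were RPL12, RPL13A, RPL22, RPL27A, RPL37A, RPL4, RPL9, RPS20, RPS23, RPS29, RPS3, RPS3A, RPS6, RPS7 and RPSA, of which 13 were among the 35. RPS9 moved from -1.34 to -0.88, while RPS3 went from -1.35 to -1.52 and RPL37A from -1.35 to -1.56. With GC content of the coding sequence in its place, an alternative chosen after seeing the data, 26 were 2-fold lower and the median was -0.85. Shares of all genes lower after either correction are not given here. The part of GC content in the differences between libraries was not tested further.

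**Figure D4:**
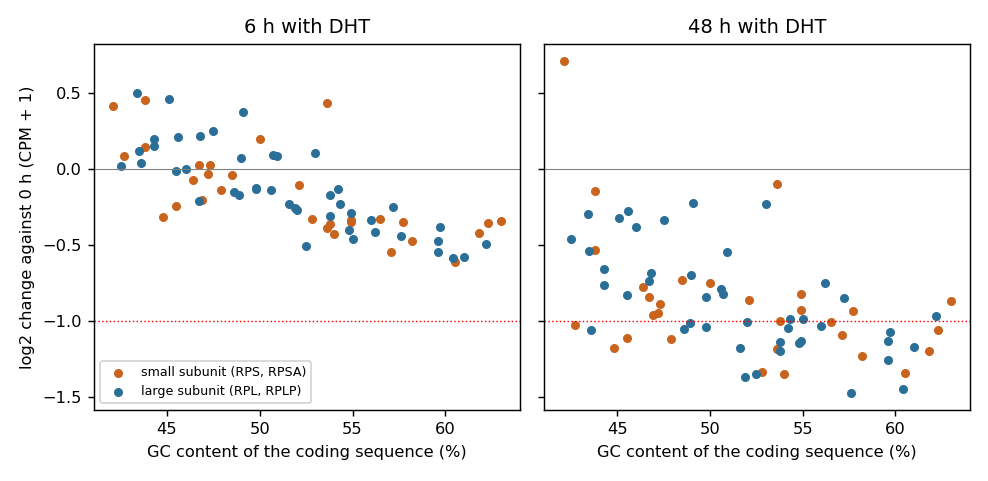
Log2 change against 0 h (vertical axis) of each measured member with a coding GC value, against the GC content of its coding sequence (%, horizontal axis), at 6 h (left) and 48 h (right), orange for the small and blue for the large subunit. At 6 h the members above 54.2% GC all lie below 0, and at 48 h all but RPS27L do at any GC content.

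Constituents of the ribosome and copies of ribosomal protein genes, whose symbols the rule does not take, were followed as a list of their own. It is called other ribosome constituents here, though a copy need not be part of the ribosome, and 7 of 8 were in the table. At 48 h, 1 was at least 2-fold lower and 0 higher, beside 7.33% and 15% of all genes, with a median of -0.71. After the GC trend was removed 0 of 7 were lower, with GNB2L1 at -0.78. GNB2L1 (RACK1), a scaffold on the small subunit, had 3362.4, 3433.9, 2588.3, 2316.2, 2004.3 and 1538.7 CPM, or -1.13 at 48 h. FAU, a fusion to a ubiquitin-like protein, had 478.5 CPM at 0 h and 292.8 at 48 h (-0.71). The copies RPS4Y1 (-0.71), RPL26L1 (-0.57), RPL7L1 (-0.37) and RPL36AL (0.27) completed the list as reported here. RPL36AL was at -0.202 after the GC trend was removed.

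Other messages known to start with a TOP tract, mostly of translation factors, included genes on both sides of their 0 h level. Of 18 listed genes 6 were at least 2-fold lower and 0 higher at 48 h, beside 7.33% and 15% of all genes, and 3 were lower at 24 h, beside 10.8%. TPT1 (0.48) and EIF3E (0.54), named after their values were seen, were above 0 h at 48 h, and the other 16 were below. After the GC trend was removed TPT1 was at 0.275 and EIF3E at -0.498. The 48 h median of the 18 genes was -0.86 against -0.96 for the ribosomal proteins and -0.06 for all genes. It was -0.75 with 3 of 17 lower after the GC trend was removed, a setting for which no share of all genes is given. EEF2, the elongation factor that moves the ribosome along the message, had 18197.6, 18361.3, 11454.8, 9893.3, 7902.5 and 7009.9 CPM (-1.38 at 48 h). IMPDH2, the enzyme that commits purine synthesis to guanine nucleotides, had 703.3, 733.3, 508.6, 381.0, 227.0 and 152.7 CPM (-2.20). HNRNPA1, a splicing regulator, had 501.9 CPM at 0 h and 159.2 at 48 h (-1.65), and GLTSCR2 (NOP53), a nucleolar assembly factor, 280.9 and 102.1 CPM (-1.45). Each of the 4 was lowest at 48 h.

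MYC, a transcription factor known to raise ribosome synthesis and not itself a member, had 398.0 CPM at 0 h, 162.9 at 3 h, 119.7 at 6 h, 120.4 at 12 h, 65.7 at 24 h and 124.4 at 48 h. It was lower in all DHT libraries than at 0 h. The 3 h library, where it was already lower, is also the one with the highest share of ribosomal protein genes. Whether MYC and these genes are linked here was not tested.

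**Figure D5:**
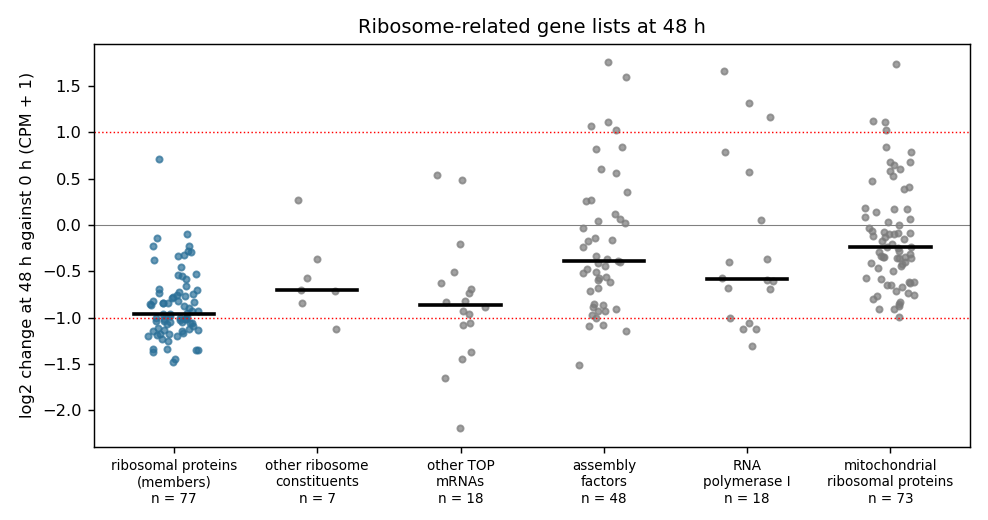
Log2 change at 48 h against 0 h (vertical axis) of each measured gene of 6 lists, 1 point per gene, with the median as a black bar and dotted lines at 2-fold. The ribosomal proteins have a median of -0.96, other ribosome constituents -0.71, other TOP messages -0.86, assembly factors -0.39, RNA polymerase I -0.58 and mitochondrial ribosomal proteins -0.24.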

How the data were processed

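RNA-seq of 6 LNCaP libraries, 1 per group, was deposited as 1 table with 2 columns per library. The count column held tags per RefSeq transcript, per the file headers, as whole numbers. The RPM column, called ppm in the file headers, held the same tags as the authors scaled them to each library's reads. Per the submitters' processing notes the build was hg19. For the aligner, counter, strand and reads that match several loci, the settings were not given in the sources used here.

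Of 18051 lines, 50 exact repeats were removed, and counts were added by symbol. Counts were scaled to the sum of listed transcripts (86.9 to 89.5% of the authors' denominator). Changes used a pseudocount of 1 CPM and a minimum mean count of 20. Poisson and conditional binomial 95% intervals were exact. GC content and lengths came from GENCODE 29 transcripts, for 96.1% of measured members and 93.5% of measured genes, and the GC trend was a lowess curve of span 0.3. Start-site sequences came from RefSeq on GRCh38.p14. Python 3.11.15, pandas 2.3.3, scipy 1.17.1, statsmodels 0.14.6 and matplotlib 3.10.9 were used.

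Named genes were the 10 lowest and 5 highest members at 48 h, the 3 lowest and 3 highest at each other time, the stalk, RPSA, RPL5, RPL11, RPS27A, the L paralogs with their partners, the 3 most and 3 least abundant per transcript kilobase, members on chromosomes 4 and 15, the other ribosome constituents, up to 4 genes of each other list by 48 h change, and MYC. The members and lists were chosen with earlier results of these data known. Alternatives were median-of-ratios scaling, the authors' denominator, a pseudocount of 0.1, no minimum count, GC correction and a 1.5-fold rule. The list of snoRNA host genes had 0 of 7 genes in the table and is not reported, and some named members are not reported here.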

Additional observations from a re-analysis of the deposited data

How the results depend on the processing

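Every result rests on 1 library per time, so no replicate could be left out. No paired analysis was possible because each group has a single library. With no minimum count or a pseudocount of 0.1 CPM, all counts and medians stayed close to the reported ones. The number of members at least 2-fold lower at 48 h was 22 with median-of-ratios scaling, 15 after GC correction and 62 by the 1.5-fold rule, by which 1 was higher. For the other scalings and the GC corrections, the shares of all genes past the rule are not given. At 24 h it was 0 with median-of-ratios scaling, 40 by the 1.5-fold rule and 1 with coding GC correction. By the 1.5-fold rule it was 2 at 6 h and 2 at 12 h. With median-of-ratios scaling the median change was -0.31 at 6 h, -0.32 at 12 h, -0.45 at 24 h and -0.89 at 48 h. After GC correction it was 0.12 at 3 h, -0.42 at 24 h and -0.74 at 48 h. With coding GC correction, chosen after seeing the data, it was 0.12 at 3 h, -0.28 at 6 h, -0.32 at 12 h, -0.52 at 24 h and -0.85 at 48 h. With a total that leaves out chromosome 4 and distal 15, also chosen after seeing the data, it was -0.32 at 12 h. Over the authors' denominator the share of counts of all 79 members was 6.88% at 0 h, 7.28% at 3 h, 5.79% at 6 h, 4.5% at 24 h and 3.5% at 48 h. The 75 members off chromosome 4 and distal 15 held 5.57% at 6 h, 5.42% at 12 h and 4.32% at 24 h of that denominator. Over the listed transcripts without these regions, the share of the 75 members was 6.68% at 6 h, 5.04% at 24 h and 3.97% at 48 h. Among named members, RPL10L (0.04), RPL31 (0.001) and RPS26 (0.031) were above 0 at 48 h after GC correction, and with coding GC correction RPS26 was at 0.134 and RPS27L at -0.067. The cause of these shifts was not tested. Counts of 143 or fewer at 48 h limit RPL10L and RPS26, and RPL3L and RPL39L could not be followed at this depth.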

Other observations

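Ribosome assembly factors, the nucleolar and cytoplasmic proteins that process ribosomal RNA and build the subunits, had members on both sides of their 0 h level. Of 48 measured, 5 were at least 2-fold lower and 5 at least 2-fold higher at 48 h, beside 7.33% and 15% of all measured genes, with a median of -0.39. FBL (fibrillarin, which methylates ribosomal RNA) went from 415.9 to 144.6 CPM (-1.52) and NOB1, the nuclease that trims the end of small-subunit RNA, from 149.7 to 67.1 CPM (-1.15). NMD3, an export adaptor of the large subunit, went from 4.78 to 18.5 CPM (1.76) and MPHOSPH10 from 7.89 to 25.9 CPM (1.60). After the trend on GC content was removed, 3 of 47 were lower and 0 higher, with no share of all genes given for that setting.

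RNA polymerase I, which transcribes ribosomal RNA, had 5 lower and 3 higher of 18 measured genes at 48 h by the same rule and beside the same shares of all genes, with a median of -0.58. CD3EAP, a subunit, went from 50.5 to 19.7 CPM (-1.31), and TWISTNB, another, from 9.86 to 33.5 CPM (1.67). POLR2K, shared between polymerases, went from 17.1 to 44.2 CPM (1.32) and TAF1A from 3.34 to 8.71 CPM (1.16). After GC correction the median was -0.18, with 1 of 17 lower and 0 higher, again without a share of all genes.

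The 73 mitochondrial ribosomal proteins, which serve the separate ribosomes of mitochondria, had 0 lower and 4 higher at 48 h, beside 7.33% and 15% of all genes, and 3 lower and 2 higher at 24 h, beside 10.8% and 10.5%. Their 48 h median was -0.24, nearer to the -0.06 of all genes than the cytosolic members at -0.96. The 4 were MRPL42 (24.5 to 84.2 CPM), MRPS18A (53.6 to 118.0), MRPL50 (6.98 to 16.2) and MRPL13 (12.6 to 26.6). After GC correction the median was -0.20, with 1 of 71 lower and 1 higher, again without a share of all genes. The difference between these lists was not tested, since each time has 1 library.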
